A study of Mus musculus with 49 samples.

Results

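A set of 10 genes that restrain NF-kB and Toll-like receptor (TLR) signalling was followed through mouse macrophages and T cells with altered Elf4, an ETS-family transcription factor. The 10 genes, Tnfaip3, Nfkbia, Nfkbiz, Irak3, Zfp36, Tnip1, Tnip3, Dusp1, Bcl3 and Cyld, were taken by name from 5 RNA tables that together list 24213 genes. All 10 are among the 14896 genes of the macrophage time course, and 9 are among the 19454 genes of the naive CD4 W250S table, where Tnip3 is not listed. All cells came from C57BL/6 mice, and the series holds 43 RNA and 6 ATAC-seq libraries, 49 samples in all.

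Bone marrow-derived macrophages (BMDM), either wild type (WT) or Elf4 knockout (KO), were grown with M-CSF for 7 days. They were taken without treatment (0 h) or after 4 or 16 h with lipopolysaccharide (LPS, 100 ng/ml), the bacterial cell wall component that TLR4 recognizes. Each genotype and time has 3 libraries. Naive CD4 T cells gave 4 libraries labelled KO with 3 WT, and 3 libraries of Elf4 W250S, an allele with 1 changed amino acid, with 3 WT of their own. Th17 cells of both genotypes, WT and W250S, were differentiated over 48 h into a pathogenic form (IL-6, IL-23, IL-1b) and a non-pathogenic form (TGF-beta, IL-6), each with 3 libraries per genotype. ATAC-seq, which counts reads from open chromatin, covered naive CD4 cells, 3 libraries labelled KO and 3 WT. How the knockout was made, and the age of the mice, are not given in the sources used here.

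When TLR4 is engaged, the adaptors MyD88 and TRIF carry the signal through IRAK kinases and TRAF ubiquitin ligases to the IkB kinases, which free NF-kB from its inhibitors, and to the MAP kinases. Many of the genes switched on in turn encode brakes: inhibitors that hold NF-kB back, enzymes that trim or bind the ubiquitin chains the pathway is built on, a pseudokinase that blocks the receptor complex, a protein that destroys cytokine mRNA and a phosphatase that turns off p38 and JNK. In macrophages this feedback is a known part of the way an LPS response is shut down and of endotoxin tolerance.

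The promoters of the genes were read from RefSeq (build GRCm38.p6), which has an entry for 9 of the 10 genes but not Nfkbiz. Tnfaip3 and Irak3 have 2 entries each, and the 1 nearest the outer end of the annotated gene was used. In the 250 bases before the start of transcription, the 10-base kappaB consensus was found, on either strand, in 5 of the 9 genes (Tnfaip3, Nfkbia, Tnip1, Tnip3 and Cyld). It was found in 3.9% of 32851 RefSeq promoters of the same length, counted by entry and not by gene. The 6-base ETS motif CCGGAA, sought on both strands because Elf4 is an ETS factor, was found in 1 gene, Zfp36, and in 12% of all promoters. Shorter or other forms of the ETS motif were not sought. A match is a stretch of letters and not a shown binding site. The promoters of 6 genes are printed, each 5′ to 3′ on the strand of its gene, with matches to either motif in capitals: 4 with a kappaB match whose genes rose steeply with LPS, and those of Zfp36 and Irak3, which differed between the genotypes. They lie at chr10:19015411-19015660 (minus strand), chr12:55492648-55492897 (minus), chr11:54962941-54963190 (minus), chr6:65590148-65590397 (plus), chr7:28379229-28379478 (minus) and chr10:120202131-120202380 (minus).
Tnfaip3: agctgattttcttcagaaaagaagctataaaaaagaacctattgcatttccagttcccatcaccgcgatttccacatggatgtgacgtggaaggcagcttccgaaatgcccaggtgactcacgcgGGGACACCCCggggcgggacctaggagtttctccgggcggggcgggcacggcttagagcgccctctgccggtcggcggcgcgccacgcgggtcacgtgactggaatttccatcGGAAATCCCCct
Nfkbia: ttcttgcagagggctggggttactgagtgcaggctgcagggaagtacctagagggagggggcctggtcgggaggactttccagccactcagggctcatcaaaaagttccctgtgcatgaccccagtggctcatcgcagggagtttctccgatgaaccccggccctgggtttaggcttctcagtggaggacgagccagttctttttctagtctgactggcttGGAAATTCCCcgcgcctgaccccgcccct
Tnip1: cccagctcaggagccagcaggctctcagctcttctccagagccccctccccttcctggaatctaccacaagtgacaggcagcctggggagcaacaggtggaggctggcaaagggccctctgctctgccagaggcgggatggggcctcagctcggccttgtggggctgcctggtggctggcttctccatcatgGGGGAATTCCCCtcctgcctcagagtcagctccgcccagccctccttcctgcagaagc
Tnip3: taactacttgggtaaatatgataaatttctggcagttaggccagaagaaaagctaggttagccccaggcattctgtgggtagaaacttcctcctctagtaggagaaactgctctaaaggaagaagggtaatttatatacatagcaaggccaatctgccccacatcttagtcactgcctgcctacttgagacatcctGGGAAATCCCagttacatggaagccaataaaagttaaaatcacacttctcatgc
Zfp36: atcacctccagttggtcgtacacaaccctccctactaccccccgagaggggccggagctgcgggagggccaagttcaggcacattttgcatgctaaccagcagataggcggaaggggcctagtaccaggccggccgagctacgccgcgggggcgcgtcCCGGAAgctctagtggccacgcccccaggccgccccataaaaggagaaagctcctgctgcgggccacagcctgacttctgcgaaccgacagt
Irak3: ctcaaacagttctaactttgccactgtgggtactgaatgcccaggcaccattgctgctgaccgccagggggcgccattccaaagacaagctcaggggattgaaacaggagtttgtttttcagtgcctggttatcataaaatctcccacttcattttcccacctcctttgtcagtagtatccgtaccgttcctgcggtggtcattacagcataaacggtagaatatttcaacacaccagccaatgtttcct

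Tnfaip3 carried 2 separate kappaB matches, which begin 125 and 12 bases before the start, Nfkbia carried 1 at 29 bases and Tnip3 1 at 54 bases. The 3 matches of Tnip1 overlap each other on both strands and make up 1 stretch. The CCGGAA match of Zfp36 begins 92 bases before its start, and the windows of Irak3, Dusp1 and Bcl3 held neither of the 2 motifs as sought here. The genes not shown lie at chr17:26505591-26508472 (Dusp1), chr7:19808462-19822824 (Bcl3), chr8:88696878-88751946 (Cyld) and chr16:55811375-55838954 (Nfkbiz).

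RNA levels are in CPM, read counts that the authors scaled to each library's total, and a difference is that of log2(CPM + 1), tested over all genes with limma. The listed genes add up to 950599 to 954161 CPM in macrophage libraries but to 472848 to 543838 CPM in T cell RNA libraries. Levels are therefore not compared between macrophages and T cells. A gene is called where its p, adjusted by Benjamini and Hochberg's method, is below 0.05. From the steps between low values, a macrophage library rested on about 11.0 to 16.0 M reads in the listed genes and a T cell RNA library on about 23.4 to 37.7 M reads (M for mega). ATAC-seq libraries held 6.19 to 13.7 M reads in peaks. Elf4 transcripts were at 15.5 to 32.6 CPM in the 9 KO macrophage libraries and at 64.6 to 134 CPM in the 9 WT libraries, with no overlap. Elf4 in naive CD4 cells was at 208, 180.4, 178 and 189.9 CPM in the 4 libraries labelled KO and at 186, 195 and 191.7 CPM in WT, so the RNA does not set these libraries apart by genotype. Summed over 6 macrophage markers, BMDM libraries held 11614 to 28317 CPM, and summed over 6 T cell markers, the naive and Th17 libraries held 999.8 to 2059.7 CPM. In bulk RNA, fewer cells of a type and less RNA per cell cannot be told apart.

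LPS raised 9 of the 10 brakes in WT macrophages at 4 h, and Cyld was called slightly lower. Among all genes tested, 15.6% were called higher at 4 h and 71.3% lower, around a median difference of -0.81 log2, and changes are to be read against that shift. By 16 h, 8 of the 9 induced brakes had come down again, Tnfaip3 and Tnip3 the furthest, and Irak3 had climbed further. The 9 were all still called higher than at 0 h, against 18.3% of all genes called higher and 56.5% lower. Between 4 and 16 h, 22.1% of all genes were called lower and 51% higher.

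Among the IkB proteins, Nfkbia encodes IkBα, which binds NF-kB in the cytoplasm and is remade after each wave of activation. It stood at 56.4, 73.7 and 60.8 CPM in the WT libraries at 0 h, at 1268, 1335 and 1285 CPM at 4 h and at 592, 589 and 575 CPM at 16 h. The 3 times did not overlap, and the rise to 4 h was 4.34 ± 0.081 (SE) log2. Nfkbiz encodes IkBζ, a nuclear IkB that both helps and limits transcription of secondary response genes. It went from 16.2, 15.4 and 15.4 CPM to 882, 879.6 and 838 CPM at 4 h and to 240.2, 229.7 and 230.0 CPM at 16 h, a rise of 5.70 ± 0.14 followed by a difference of -1.89 ± 0.14 log2. Bcl3, a nuclear IkB that keeps p50 dimers on DNA, rose by 3.61 ± 0.11 log2, from between 9.31 and 12.5 CPM to between 128 and 155 CPM, and stood at 16 h at 74.0, 81.1 and 73.1 CPM.

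Tnfaip3 encodes A20, the ubiquitin-editing enzyme that takes apart signalling complexes below TLRs and the TNF receptor, and it showed the largest rise to 4 h and the largest fall after it among the 10. WT libraries held 18.5, 20.1 and 18.2 CPM at 0 h, 1955, 1966 and 1989.6 CPM at 4 h and 214, 201 and 220.2 CPM at 16 h. The 4 h level was 99.0-fold that at rest on the log2(CPM + 1) scale (6.63 ± 0.12 log2), and from 4 to 16 h the difference was -3.21 ± 0.12 log2. Its partners ABIN1 (Tnip1) and ABIN3 (Tnip3), which bind A20 and ubiquitin chains, took different courses from each other. Tnip1 was at 53.8, 60.6 and 57.2 CPM, then 495, 518 and 503 CPM, then 407, 405 and 398 CPM, a difference between the last 2 times of -0.32 ± 0.087 log2. Tnip3 peaked at 1177, 1197 and 1205 CPM from 56.5, 78.8 and 63.5 CPM and was at 207, 191.5 and 192.5 CPM at 16 h (-2.59 ± 0.092 log2). The deubiquitinase gene Cyld held 73.3, 75.1 and 72.3 CPM at 0 h, 63.5, 58.8 and 63.0 CPM at 4 h and 65.7, 64.0 and 59.0 CPM at 16 h. Its difference of -0.25 log2 at 4 h was called lower (limma adjusted p = 0.00519), yet it is smaller than the shift of all genes, and with median-ratio scaling the direction flips to 0.65 at 4 h and 0.23 at 16 h. The call at 16 h was also lost without WT replicate 3 (-0.18, adjusted p = 0.0671).

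Irak3 encodes IRAK-M, the pseudokinase that holds the receptor-bound IRAK kinases in check and is a marker of endotoxin tolerance. WT libraries held 26.3, 24.7 and 27.2 CPM at 0 h, 59.4, 75.1 and 57.5 CPM at 4 h and 294, 313.5 and 277 CPM at 16 h. Among the 10 genes it was the one with its highest WT libraries at 16 h, after a rise of 1.25 ± 0.11 log2 by 4 h and a further 2.19 ± 0.11 log2 by 16 h (limma adjusted p = 7.27e-12). Zfp36 encodes tristetraprolin, which binds AU-rich elements and speeds the decay of Tnf and other cytokine mRNAs, and went from 60.9, 80.1 and 81.8 CPM to 1182, 1299 and 1269 CPM and then to 259, 269 and 283 CPM. Dusp1 encodes MKP-1, the phosphatase of p38 and JNK, and went from 37.4, 42.0 and 45.5 CPM to 996, 1014 and 1079 CPM and then to 268, 227 and 282 CPM. The 4 h levels lay above and the 16 h levels between the others for both genes, with rises of 4.07 (Zfp36) and 4.60 (Dusp1) log2 and later differences of -2.20 and -1.99 log2 (SE 0.15 and 0.14).

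**Figure D1:**
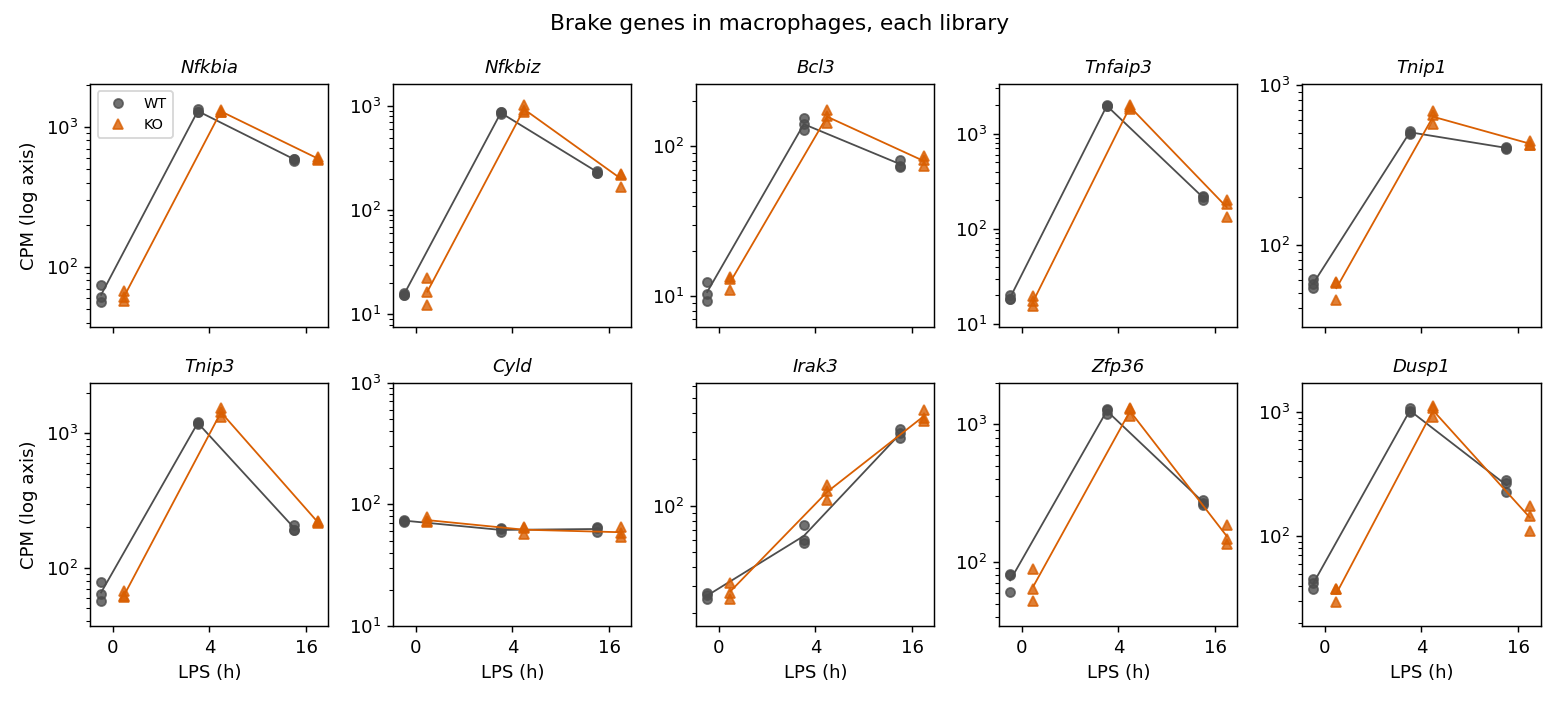
CPM of each gene (log axis) in every macrophage library at 0, 4 and 16 h of LPS, circles for WT and triangles for KO, with lines through the geometric means of 3 libraries. A total of 9 genes jump at 4 h and 8 of them decline by 16 h, Irak3 keeps climbing, and Cyld lies between 54.5 and 78.3 CPM throughout.

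**Figure D2:**
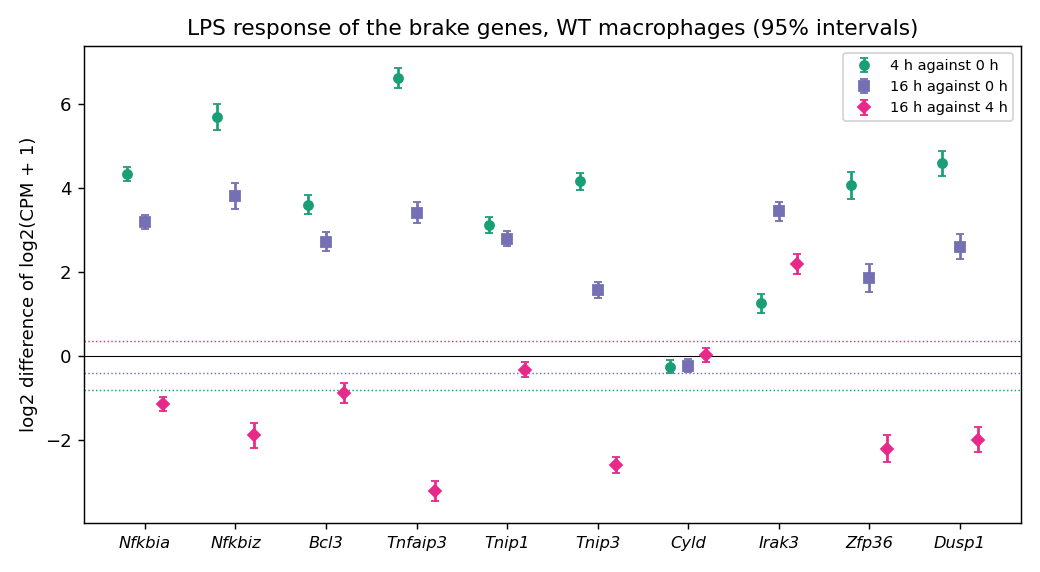
Differences of log2(CPM + 1) in WT macrophages (vertical axis) for each gene, with 95% intervals: circles 4 h against 0 h, squares 16 h against 0 h, diamonds 16 h against 4 h. Dotted lines mark the median of all 12058 genes tested (-0.81, -0.41 and 0.35); the diamonds lie below 0 for every gene but Irak3 (2.19) and Cyld (0.025).

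The rest of the pathway gives the setting for these courses in WT cells. Of 10 genes for NF-kB subunits and IkB kinases, 9 rose at 4 h, led by Nfkb2 (3.68 log2), Ikbke (3.03) and Nfkb1 (2.51), and 9 fell between 4 and 16 h, Rel the most (-2.28). Of 17 genes for TLR4, its co-receptors and its adaptors, 6 rose and 11 fell at 4 h, with Irak2 (2.67) and Myd88 (2.26) highest and Tab1 lowest (-2.18). Their median was -0.51 log2, and among all genes 15.6% were called higher and 71.3% lower at 4 h. Of 26 further brakes, 12 rose and 14 fell at 4 h, with a median of -0.45. Those with the largest rises were the JAK-STAT inhibitors Socs3 (8.54) and Socs1 (6.11) and the nuclear phosphatase gene Dusp2 (6.77), while Inpp5d, which encodes the lipid phosphatase SHIP1, rose from 4 to 16 h (3.38). All 17 inflammatory target genes tested rose at 4 h, with a median of 6.97 log2, and 12 of them fell from 4 to 16 h, Il6 by the most (-5.33). The median of the 10 brakes was 4.11 at 4 h and -1.52 between 4 and 16 h, beside -0.81 and 0.35 for all genes.

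Over the 18 macrophage libraries, which fall into 3 times, the gene whose log2 levels ran closest to Tnfaip3 was the kinase gene Pim1 (Pearson r = 0.999), followed by Hcar2 and the chemokine gene Ccl3. For Irak3 the closest were Wfdc17 (r = 0.990), Nfe2l1 and Hp, the last of which encodes haptoglobin. For Zfp36 they were Daxx (r = 0.996), Ccrl2 and Tmem67, and for Dusp1 Stx11 (r = 0.995), Cxcl10 and Slc25a22. Nfkbiz was closest to Traf1 (r = 0.997), Tnip1 to Vasp (r = 0.997), Tnip3 to Rab11fip1 (r = 0.996), and Nfkbia and Bcl3 both to the phosphodiesterase gene Pde4b (r = 0.995 and 0.997). The highest value for Cyld was 0.917, to Ppp4r3b. Libraries of a time share their LPS treatment, so that these values describe likeness of course over 3 times only.

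The KO libraries address whether macrophages without Elf4 respond to LPS differently. In KO cells the same 9 brakes were called higher and Cyld lower at 4 h and at 16 h (limma; 15.6% of all genes higher and 70.8% lower at 4 h, 17.8% and 50.1% at 16 h), with Tnfaip3 at 6.70 and Irak3 at 2.10 log2 at 4 h. Against WT at rest none of the 10 brakes was called (limma, 0 of 10, and 0 with an unadjusted p below 0.05), where 0.44% of all genes were; their differences ran from -0.26 (Dusp1) to 0.21 log2 (Bcl3), and KO and WT libraries overlapped for each, where 14.2% of all genes did not overlap. At 4 h Irak3 was higher in KO cells, by 0.94 ± 0.11 log2, and Tnip1 by 0.32 ± 0.087; the other 8 were not called. At 16 h Dusp1 (-0.86 ± 0.14) and Zfp36 (-0.80 ± 0.15) were lower in KO cells, Tnfaip3 was called lower by a narrower margin (-0.32 ± 0.12), and Irak3 was higher (0.37 ± 0.11). Beside these counts, 2.38% of all genes were called higher and 1.81% lower at 4 h (4.19% in all), and 20.9% and 9.65% at 16 h, so that 4 called of 10 at 16 h is close to the 30.5% of all genes called.

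Irak3 gave the largest difference among the 10 at 4 h. The WT libraries here are those of the LPS response above. KO libraries held 109, 137 and 124 CPM and WT libraries 59.4, 75.1 and 57.5 CPM, so that the lowest KO library was above the highest WT one, as it was for 22.4% of all genes tested in either direction. The difference had a 95% interval of 0.71 to 1.17 log2 and a limma adjusted p of 0.000409; leaving out each library in turn kept it between 0.86 and 1.06 with the adjusted p at most 0.00451. At 16 h the KO libraries held 355, 421 and 369 CPM against 294, 313.5 and 277 CPM, again without overlap (limma adjusted p = 0.018). The median of all genes was itself 0.12 higher in KO cells at 16 h, and with median-ratio scaling, which brings that median to 0.024, Irak3 was 0.25 and no longer called (adjusted p = 0.111). The call was also lost without KO replicate 2 (0.30, adjusted p = 0.0887) or without WT replicate 3 (0.32, adjusted p = 0.072).

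Dusp1 and Zfp36 overlapped with WT at 4 h and lay below it at 16 h. For Dusp1 the KO libraries held 1088, 911 and 1111 CPM at 4 h, overlapping 996, 1014 and 1079 CPM in WT, and 177, 111 and 146 CPM at 16 h against 268, 227 and 282 CPM. For Zfp36 they held 1313, 1139 and 1287 CPM at 4 h, overlapping 1182, 1299 and 1269 CPM in WT, and 185, 134 and 148 CPM at 16 h against 259, 269 and 283 CPM. At 16 h neither gene overlapped between genotypes, as was so for 48.7% of all genes, and the limma adjusted p was 0.000387 for Dusp1 and 0.00127 for Zfp36. Both calls held without each library in turn, with differences from -1.01 to -0.68 for Dusp1 and from -0.93 to -0.70 for Zfp36, and both were larger with median-ratio scaling (-0.97 and -0.92).

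The change of the KO effect between 4 and 16 h was tested itself. It was -0.86 ± 0.20 log2 for Dusp1 (limma adjusted p = 0.0224), -0.80 ± 0.22 for Zfp36 (adjusted p = 0.0483) and -0.57 ± 0.16 for Irak3 (adjusted p = 0.0488), where 1.92% of all genes were called in this direction and 4.06% in either. These 3 sat close to the threshold, and without single libraries the adjusted p went up to 0.0698, 0.116 and 0.119 respectively. Against 0 h, the KO effect on Irak3 was larger at 4 h by 0.85 (adjusted p = 0.0744), and at 16 h those on Zfp36 and Dusp1 differed by -0.66 and -0.60 (adjusted p = 0.0729 and 0.0752). None of the 10 was called by limma in these tests without a replicate block, beside 0.00829% of all genes in the first and 6.45% in the second (3 and 2 of the 10 had an unadjusted p below 0.05).

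The A20 group differed less. Tnip1 held 569, 649 and 684 CPM in KO and 495, 518 and 503 CPM in WT libraries at 4 h, without overlap, but its limma adjusted p of 0.0441 rose to 0.137 with median-ratio scaling, to 0.0601 when the 4 h libraries were fitted alone, and past the threshold without 5 of the 6 libraries in turn, all but KO replicate 1. Tnip3 held 1439, 1313 and 1552 CPM against 1177, 1197 and 1205 CPM at 4 h, also without overlap, a difference of 0.26 (95% interval 0.068 to 0.46) that was not called (adjusted p = 0.127). At 4 h 22.4% of all genes did not overlap. At 16 h Tnfaip3 held 181, 202 and 132 CPM in KO and 214, 201 and 220.2 CPM in WT libraries, which overlap at KO replicate 2 alone. Without KO replicate 3 the difference was -0.14 (adjusted p = 0.245), and the call was lost without any 1 of the WT libraries too (adjusted p = 0.0639 to 0.126). It was lost as well with no filter on low values (adjusted p = 0.0551), with the 16 h libraries fitted alone (0.0999) and with a replicate block (0.0502). Cyld was not called, at 0.0061 and -0.087 at 4 and 16 h.

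The IkB genes were not called at any time. Nfkbia at 4 h held 1278, 1265 and 1324 CPM in KO and 1268, 1335 and 1285 CPM in WT libraries, and the 95% interval of its difference, -0.18 to 0.16 log2, includes 0. At 16 h it was 0.023 (-0.15 to 0.19). Bcl3 was 0.17 (-0.065 to 0.40) at 4 h and 0.073 (-0.16 to 0.30) at 16 h. Nfkbiz was above WT in each KO library at 4 h, 1019, 885 and 918 against 882, 879.6 and 838 CPM. It was below WT in each at 16 h, 226, 218 and 169 against 240.2, 229.7 and 230.0 CPM. Groups did not overlap, in either direction, for 22.4% of all genes at 4 h and 48.7% at 16 h. For Nfkbiz neither difference (0.12 and -0.20) nor their change (-0.32, limma adjusted p = 0.395) was called.

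**Figure D3:**
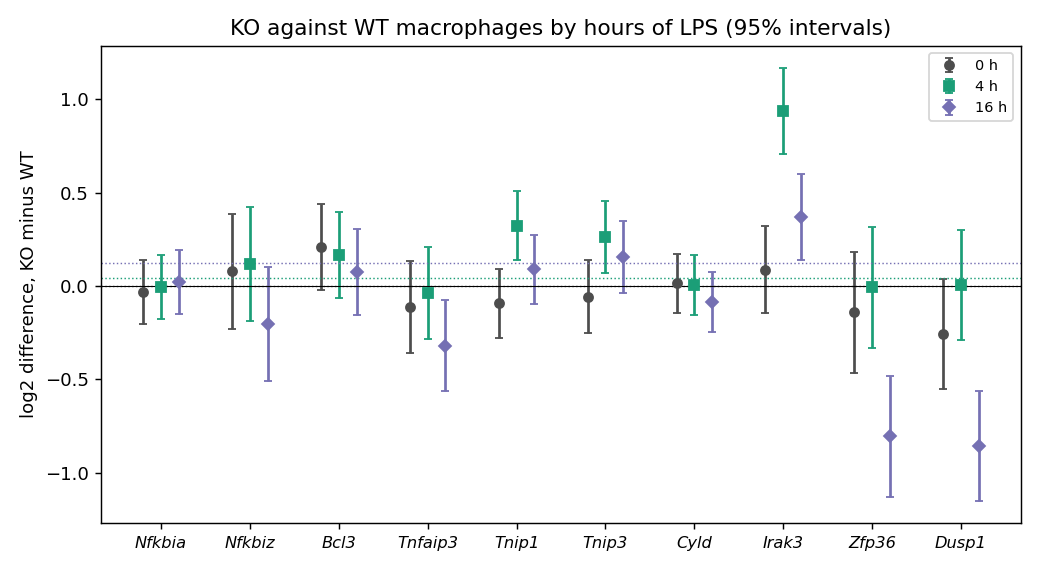
KO minus WT difference of log2(CPM + 1) for each gene at 0 h (circles), 4 h (squares) and 16 h (diamonds) of LPS, with 95% intervals from 3 libraries per group; dotted lines mark the median of all genes at each time. Irak3 stands highest at 4 h (0.94), and Dusp1 (-0.86) and Zfp36 (-0.80) lowest at 16 h.

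Other genes of the pathway at 4 h in KO cells included 2 of 26 further brakes called higher, Zfp36l1, a relative of Zfp36 (0.83), and Dusp16, a JNK phosphatase gene (0.59), and 3 of 17 targets called higher, the growth factor gene Csf3 (1.60) and the chemokine genes Cxcl1 (0.92) and Cxcl2 (0.64). No gene of the receptor and adaptor list or of the NF-kB list was called at 4 h by limma. At 16 h, 11 of 17 targets were called lower and none higher, with a median of -0.70, beside 0.12 for all genes; Il10 (-1.25), Nos2 (-1.13) and Il12b (-1.05) led. Of the further brakes 9 were called lower and 4 higher of 26, with Pdlim2, a ligase for p65 (-0.82), Atf3, a repressor of cytokine genes (-0.74), and Dusp4 (-0.67) the largest falls. Of 17 receptor and adaptor genes 6 were called lower and 1 higher, among them Tirap (-0.55), Irak4 (-0.48) and Ticam1 (-0.47), and of 10 NF-kB genes 2 were lower, Rel (-0.37) and Tbk1 (-0.34). Over all genes, 9.65% were called lower and 20.9% higher at 16 h, and 2.38% higher at 4 h. At rest 1 further brake was called, Socs3, which was higher (0.67), beside 0.44% of all genes called.

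Stromal and neutrophil markers were higher in KO libraries at 16 h, with overlap between the genotypes for the stromal ones. The summed level of 9 stromal markers was 839.5 to 2700.5 CPM in KO and 498 to 924 CPM in WT libraries, with the highest value in KO replicate 2, and that of 5 neutrophil markers 75.2 to 102 against 27.0 to 38.1 CPM, and Mpo and Elane had a mean under 0.1 CPM in WT. The 6 macrophage markers summed to 22619 to 28317 against 17050.2 to 18449 CPM. At 4 h the stromal markers summed to 391 to 1218 against 271 to 477 CPM and the neutrophil markers to 6.00 to 23.2 against 3.11 to 6.98 CPM. Without KO replicate 2, the library with the highest stromal sum, the 16 h difference was -0.68 for Dusp1 (limma adjusted p = 0.00219) and -0.70 for Zfp36 (adjusted p = 0.00915). In that setting Irak3 was 0.30 at 16 h and lost its call (adjusted p = 0.0887), and without KO replicate 2 of 4 h, which also has the highest stromal sum of its group, Irak3 was 0.86 at 4 h (adjusted p = 0.0027). Leaving out KO replicate 2 does not take the stromal and neutrophil markers away at 16 h. The lowest KO stromal sum there was 839.5 CPM, and the neutrophil sum was highest in KO replicate 3. The part of these markers in the differences of Irak3, Dusp1 and Zfp36 was not tested.

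In naive CD4 T cells none of the brakes was called by limma without a replicate block, either in the libraries labelled KO (0 of 9 tested, 8.03% of all genes; 0 with an unadjusted p below 0.05) or in W250S cells (0 of 9, 4.16% of all genes; 2 with an unadjusted p below 0.05). Tnip3 was at most 0.129 CPM in the KO set and was not tested. The largest difference in both sets was that of Dusp1, which was spread widely within each group.

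Dusp1 held 67.4, 64.9 and 10.2 CPM in the WT and 132, 114, 121 and 17.2 CPM in the libraries labelled KO, in the order of their replicate numbers. Replicate 3 of WT and replicate 4 of the libraries labelled KO stood far below the rest, and Zfp36 showed the same 2 libraries low, at 166 against 309.8 and 319 CPM in WT and at 123 against 284 to 299 CPM in those labelled KO. The difference in Dusp1 was 1.05 ± 0.71 log2 (limma adjusted p = 0.406) over all 7 libraries. Without both low libraries it was 0.88, a description with no test, since these libraries were picked by their Dusp1 level. Leaving out each library in turn, it was smallest without the low WT library, at 0.19 (adjusted p = 0.9), and largest without the low library labelled KO, at 1.74 (adjusted p = 0.0483). That last setting also gave a call for Tnfaip3 (0.55, adjusted p = 0.0375), which was 49.4, 53.4 and 34.9 CPM in WT and 81.7, 58.1, 62.5 and 37.8 CPM in the libraries labelled KO.

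In the W250S set Dusp1 held 14.6, 67.0 and 39.3 CPM in WT and 51.1, 78.4 and 82.9 CPM in W250S libraries, and replicate 1 of WT was lowest in Zfp36 too, at 187 CPM against 257 CPM or more in the other 5 libraries. The difference in Dusp1 was 1.01 ± 0.32 (limma adjusted p = 0.0875), 0.42 without that library (adjusted p = 0.156) and 1.49 without WT replicate 2 (adjusted p = 0.000409). Tnfaip3 was 0.33 (adjusted p = 0.216) with overlapping groups. Nfkbia held between 36.7 and 46.7 CPM in all 13 naive libraries, with 95% intervals of -0.16 to 0.20 log2 in the KO set and -0.20 to 0.25 in the W250S set. Cyld lay between 97.2 and 136 CPM, and its intervals were -0.16 to 0.10 and -0.35 to 0.12. Irak3 was low, at 2.46 to 5.39 CPM, and Tnip1, at 20.97 to 31.8 CPM, differed by 0.0032 and 0.055. Of 24 further brakes 1 was called in each set, Nfkbie, which encodes IkBε, lower in the libraries labelled KO (-0.49) and in W250S (-0.42), each against its own WT. Of 13 receptor and adaptor genes 3 were lower in the libraries labelled KO, Tirap (-0.56), Myd88 (-0.49) and Ripk1 (-0.26), and none was called in W250S by limma. Over all genes, 8.03% were called in either direction in the KO set and 4.16% in the W250S set. The share called lower is not given here, so these counts stand without one.

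**Figure D4:**
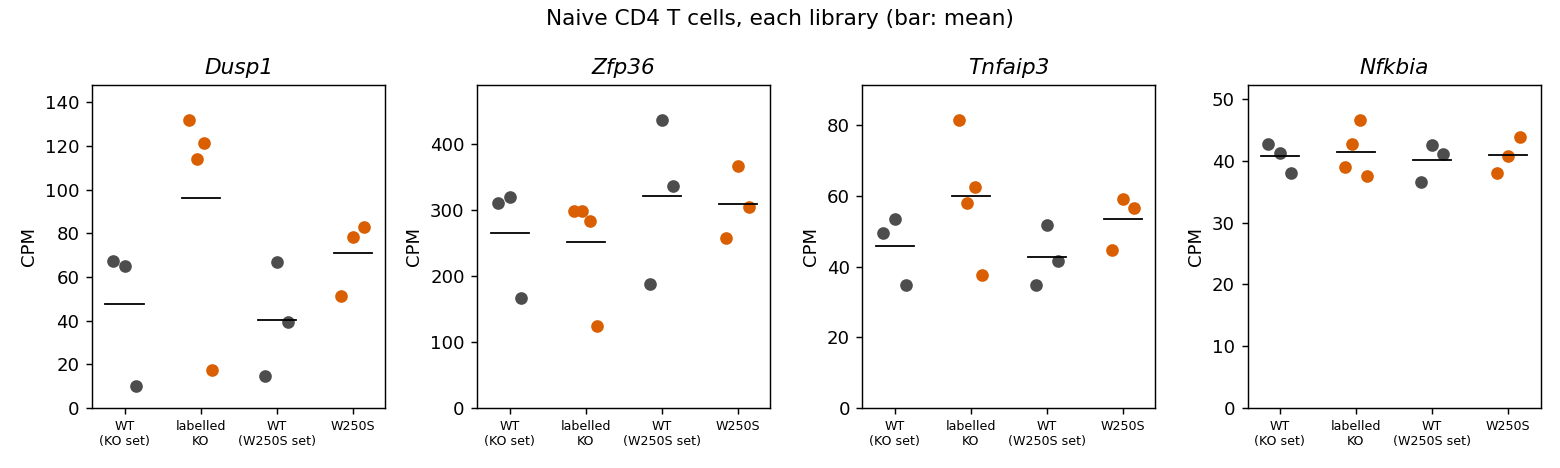
CPM of Dusp1, Zfp36, Tnfaip3 and Nfkbia in each naive CD4 T cell library (points) with the group mean (bar), for the set with libraries labelled KO and the W250S set. Single libraries at 10.2, 17.2 and 14.6 CPM lie lowest for Dusp1, and Nfkbia stays between 36.7 and 46.7 CPM.

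In cultured Th17 cells Nfkbiz was higher in W250S than in WT; its product IkBζ is known to cooperate with ROR factors in Th17 differentiation. It was the only 1 of 9 brakes tested that was called in pathogenic cultures (0.891% of all genes were called higher) and 1 of 2, with Tnfaip3, in non-pathogenic cultures (4.12%). Irak3 lay below the filter in both, at no more than 1.02 CPM, and was not tested. In pathogenic cultures Nfkbiz held 33.0, 29.9 and 36.4 CPM in W250S and 24.1, 22.4 and 24.2 CPM in WT libraries, a difference of 0.47 ± 0.078 log2 (limma adjusted p = 0.0142). In non-pathogenic cultures it held 11.3, 11.2 and 8.79 CPM against 6.52, 6.23 and 7.92 CPM, a difference of 0.53 ± 0.11 (adjusted p = 0.0235). The groups did not overlap in either culture, as for 24.4% and 31.6% of all genes. The call was lost without either of 2 W250S libraries in pathogenic cultures (adjusted p up to 0.104) and without any of 2 W250S and 1 WT libraries in non-pathogenic ones (up to 0.128), while the difference stayed between 0.40 and 0.64.

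Tnfaip3 held 36.2, 33.6 and 34.0 CPM in W250S and 26.1, 28.1 and 29.9 CPM in WT non-pathogenic cultures, without overlap (0.30 ± 0.07, limma adjusted p = 0.031, lost without any of 4 libraries, up to 0.134). In pathogenic cultures it held 54.8, 44.7 and 53.0 CPM against 44.6, 42.3 and 44.4 CPM, the lowest W250S library just above the highest WT one, a difference of 0.21 that was not called (adjusted p = 0.181). Nfkbia held 111, 105 and 115 CPM in W250S and 85.0, 91.9 and 96.7 CPM in WT pathogenic cultures (0.27, adjusted p = 0.053), just short of the threshold, and passed it with median-ratio scaling (adjusted p = 0.0475). In non-pathogenic cultures its difference was 0.11 (adjusted p = 0.248). Whether the effect of W250S differs between the cultures was not tested, since their tables were normalized separately.

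None of the other brakes was called in Th17 cells. Zfp36 was -0.097 and -0.091 in pathogenic and non-pathogenic cultures, Dusp1 -0.089 and -0.041 at 5.80 to 7.59 CPM, Bcl3 -0.09 and -0.17, Tnip1 0.13 and 0.074, Tnip3 0.24 and -0.12, and Cyld -0.097 and 0.15. Of 26 further brakes, 1 was called higher and 1 lower in pathogenic cultures, Zc3h12a, which encodes the RNase Regnase-1 (0.43), and Inpp5d (-0.39). In non-pathogenic cultures 3 were higher and 3 lower, with Zc3h12a (0.56) and Nfkbid, the gene of the nuclear inhibitor IkBNS (0.41), among the former and Nlrx1 (-0.69) among the latter. Of 10 NF-kB genes none was called by limma in pathogenic and 1, Rel (0.33), in non-pathogenic cultures. Of 14 receptor and adaptor genes 1, Ripk1, was lower in pathogenic cultures (-0.29), and 2 were higher, Map3k7 (0.41) and Irak2 (0.39), and 1 lower, Ticam1 (-0.27), in non-pathogenic ones. Over all genes, 0.891% were called higher in pathogenic and 4.12% in non-pathogenic cultures. The share called lower is not given here, so the counts called lower stand without one. Of 6 targets, the cytokine gene Il1a was higher in both (1.15 and 1.95) and Tnf in non-pathogenic cultures (0.56). The summed level of 5 Th17 markers was 65.0 to 104 CPM in W250S and 40.3 to 58.6 CPM in WT pathogenic cultures, and 99.5 to 137 against 53.3 to 78.9 CPM in non-pathogenic ones; its part in the difference of Nfkbiz was not tested.

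**Figure D5:**
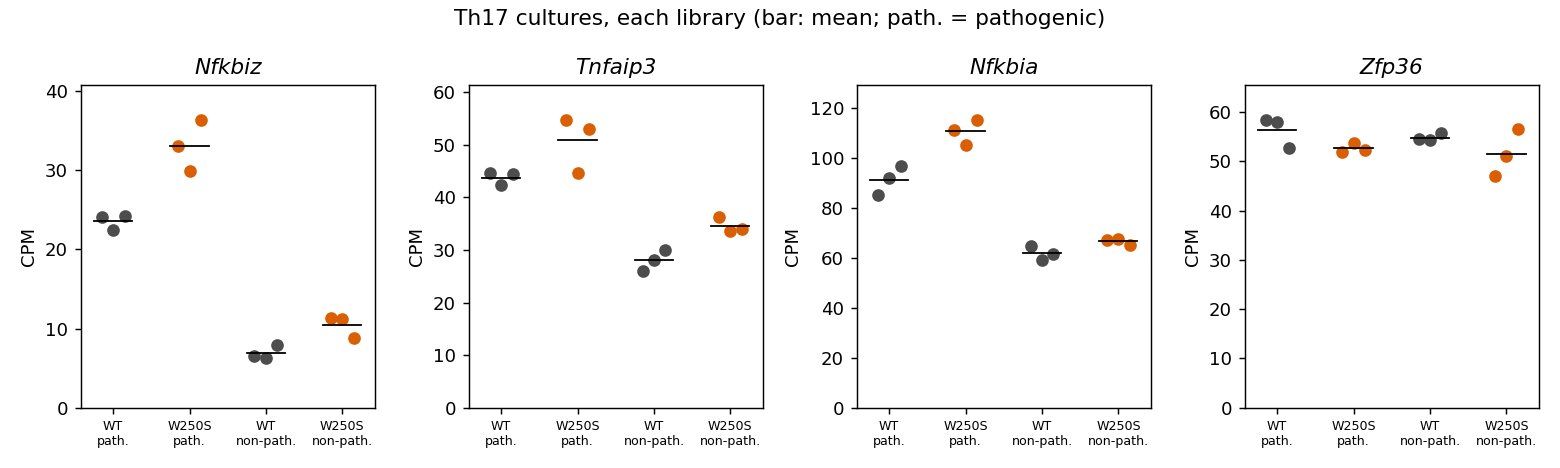
CPM of Nfkbiz, Tnfaip3, Nfkbia and Zfp36 in each Th17 library (points) with the group mean (bar), WT and W250S in pathogenic and non-pathogenic cultures. W250S libraries lie above WT for Nfkbiz in both cultures, at 29.9 to 36.4 against 22.4 to 24.2 CPM and at 8.79 to 11.3 against 6.23 to 7.92 CPM.

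Open chromatin at the brakes was read in naive CD4 cells, where the authors assigned 61 peaks to the 10 genes. Of these 34 had enough reads to be tested, and none was called between the libraries labelled KO and WT by edgeR's quasi-likelihood test (lowest adjusted p = 0.393; 3 peaks with an unadjusted p below 0.05; 0 called by DESeq2), where 0.00851% of all 47000 tested peaks were called. Their differences ran from -0.85 to 0.42 log2. A peak overlapped the 250-base promoter window of 8 of the 9 genes with such an entry, all but Tnip3, and that over Irak3 was assigned by the authors to its neighbour Tmbim4. For Tnip1, Bcl3 and Zfp36 another peak that the authors placed at a start held more reads than that in the window. For Tnip1 these were 809, 940 and 1493 against 29, 62 and 62 reads in WT. At the Tnfaip3 promoter the WT libraries held 782, 1017 and 1540 reads and those labelled KO 1830, 1225 and 1920 reads, a difference of -0.14 log2 after scaling for depth. At the Nfkbia promoter the values were 937, 663 and 959 against 1867, 1218 and 1805 reads (0.15), and at Dusp1 1272, 1277 and 2090 against 2823, 2022 and 2754 reads (-0.011). Library totals were 9.61 to 13.7 M reads in those labelled KO and 6.19 to 9.71 M reads in WT, so that raw reads compare only after scaling. Leaving out WT replicate 1 raised the calls over all peaks to 2070 and those at the brakes to 1.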

How the data were processed

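The members and the other gene lists were chosen with earlier results of these data known. RNA values are CPM tables normalized by the authors, and the ATAC-seq table holds expected counts per peak as deposited; its values were rounded to whole numbers. The submitters' processing notes name BWA, Bowtie2, MACS2, DESeq2 and Partek 10.0.21.0411 and build mm10, without roles. The file headers give the 18 macrophage libraries 18 different de-identified mouse numbers, although libraries with the same replicate number correlate over the times, so that a shared source is not settled. For T cells nothing says that samples came from separate mice, so their p-values measure the spread between these samples, which may be technical.

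CPM values were taken to log2(CPM + 1), and genes that reached 1 CPM in 3 or more libraries were fitted with limma 3.58.1 (lmFit and eBayes with trend, R 4.3.3, two-sided, Benjamini-Hochberg below 0.05). The log2 fold changes, computed here from the deposited CPM, understate changes of low genes. All 18 macrophage libraries were fitted together, and each T cell table alone. Peaks were tested with edgeR 4.0.16 (TMM, filterByExpr, glmQLFit and glmQLFTest), with DESeq2 1.42.0 as an alternative. Some tables list 0.0001 in place of 0. For macrophages, 1 duplicate row with identical values was dropped. Figures were drawn with matplotlib 3.10.9. The fits were tested on simulated data with known changes.

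Named were all 10 members, Elf4, up to 3 called genes with the largest change per list and comparison, and up to 3 genes closest to a member by Pearson r over the macrophage libraries. Alternatives were a pseudocount of 0.1, no filter, median-ratio scaling, the compared groups fitted alone, a replicate block and each library left out. Same-numbered libraries were tested for pairing by their deviations from the group means; the rule that every pair exceed 0.1 was not met in any set, over the times by 2 of 18 pairs.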

Additional observations from a re-analysis of the deposited data

Results flagged for a closer look

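Among the 4 naive CD4 libraries labelled KO, replicate 4 stood apart from the other 3 for 3 of the 10 genes looked at, and a group of 4 stands apart this far by chance about 1 time in 20. Dusp1 was at 17.2 CPM there, with a gap to the nearest library of 0.844 of the group's whole range, Zfp36 was at 123 CPM with a gap of 0.914, and Tnip3 was at 0.129 CPM with a gap of 0.853; all 3 pass Dixon's 95% limit for 4 samples. Tnip3 lies so low that its value rests on few reads.

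The KO effect in macrophages differed between 4 and 16 h for 3 genes by limma, by -0.57 log2 for Irak3 (adjusted p = 0.0488), by -0.80 for Zfp36 (adjusted p = 0.0483) and by -0.86 for Dusp1 (adjusted p = 0.0224). These calls are fragile: no single library could be left out with all 3 kept, the adjusted p going up to 0.119, 0.116 and 0.0698, and 1 of the 3 was called with no filter or with a pseudocount of 0.1. Between the genotypes, 22.4% of all genes did not overlap at 4 h and 48.7% at 16 h. Nfkbiz was higher in every KO than in every WT library at 4 h (0.12 log2) and lower in every one at 16 h (-0.20). That crossing over of whole groups was not tested as such, and the limma test of the change between the times did not call it (-0.32, adjusted p = 0.395).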

How the results depend on the processing

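At 16 h the KO differences of Dusp1 and Zfp36, and at 4 h that of Irak3, were called under every alternative run on them. Median-ratio scaling turned the direction of small differences: KO against WT at 4 h Dusp1 (-0.059) and Cyld (-0.057), at 16 h Nfkbia (-0.093), Tnip1 (-0.027) and Bcl3 (-0.042), WT Cyld at 4 h (0.65), at 16 h (0.23) and between them (-0.42), naive Tnip1 in the KO set (-0.00321), and in the W250S set Nfkbia (-0.0558), Zfp36 (-0.069) and Tnip1 (-0.028). Genes called then numbered 31 in place of 53 at 0 h, 2 in place of 1 for the KO effect at 4 h minus 0 h, and 1714 in place of 905 in non-pathogenic cultures. Members called were then 1 in place of 2 at 4 h and 2 in place of 1 in pathogenic cultures. Fitting the compared groups alone gave 1 gene at 0 h and 248 in place of 505 at 4 h, with 1 member. Without a filter 1 member was called at 4 h, 1 in place of 3 for the change from 4 to 16 h (also with a pseudocount of 0.1), and 330 in place of 516 genes in naive W250S. ATAC-seq gave 67 peaks with DESeq2 and 52 without the filter, in place of 4. The causes were not tested.

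Same-numbered libraries failed the rule for pairing, a correlation above 0.1 in every pair, with lowest values of 0.057 over times, -0.20 between genotypes, -0.039 in the naive KO set and 0.033 in the naive W250S set. Over times, however, all 18 same-numbered pairs were positive, 16 were above 0.1, and in 34 of 36 comparisons a library correlated best with its own number, a hint from the data that the numbers share a source. A block for genotype and number over the times was fitted to the change of the KO effect. From 0 to 4 h 43 genes and 1 member were then called (Irak3, limma adjusted p = 0.00909). From 0 to 16 h they were 1788 and 2 (Zfp36, 0.0119, and Dusp1, 0.0218), and from 4 to 16 h 1221 genes. Between genotypes, a macrophage library correlated best with its own number in only 3 of 18 comparisons. That was so in 1 of 6 in the naive KO set and 5 of 6 in naive W250S. A block for a number shared by the genotypes gave 103 genes at 0 h and 0 ATAC-seq peaks. In naive W250S it gave 1261 genes and 4 members (Dusp1, Tnfaip3, Nfkbiz and Bcl3). In the naive KO set it gave 1597 and 2 (Dusp1 and Tnfaip3), with Zfp36 turned to 0.21. Replicate 4 of those labelled KO has no WT partner, so there the block in effect leaves out that low-Dusp1 library. No paired analysis was possible for Th17 cultures because their columns carry no number that matches a sample. Leaving out both low-Dusp1 naive libraries, chosen after seeing the data, called 1 member, Dusp1, by whose level they were picked and which this does not test, and turned Irak3 to 0.017. The planned count test on recovered whole reads was not run, because 91.0% to 96.2% of low values in a library came out whole within 0.1 read.

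Leaving out single libraries moved the genes called and members called as follows. At 0 h there were 18 to 95 genes, at 4 h 247 to 473 genes and 1 to 2 members, and at 16 h 2 to 4 members. The change of the KO effect gave 0 to 40 genes and 0 to 1 members from 0 to 4 h, 282 to 1031 and 0 to 2 from 0 to 16 h, and 195 to 898 and 0 to 2 from 4 to 16 h. Naive cells gave 466 to 1380 genes and 0 to 2 members in the KO set and 204 to 557 and 0 to 1 in W250S, non-pathogenic cultures 54 to 2112 and 0 to 3, pathogenic cultures 42 to 370 and 0 to 3, and ATAC-seq 0 to 2070 peaks and 0 to 1 at members. Small differences that crossed 0 ran, in KO against WT at 0 h, from -0.023 to 0.039 (Cyld), -0.0031 to 0.16 (Irak3), -0.11 to 0.079 (Nfkbia), -0.13 to 0.29 (Nfkbiz), -0.16 to 0.025 (Tnip1), -0.16 to 0.073 (Tnip3) and -0.35 to 0.034 (Zfp36). At 4 h they ran from -0.029 to 0.058 (Cyld), -0.047 to 0.095 (Dusp1), -0.027 to 0.014 (Nfkbia), -0.078 to 0.0070 (Tnfaip3) and -0.046 to 0.057 (Zfp36). The effect at 4 h minus 0 h ran from -0.015 to 0.16 (Tnfaip3) and -0.040 to 0.34 (Zfp36), and WT Cyld at 16 against 4 h from -0.0094 to 0.070. In the naive KO set the ranges were -0.072 to 0.28 (Bcl3), -0.033 to 0.069 (Nfkbia), -0.032 to 0.061 (Tnip1) and -0.41 to 0.21 (Zfp36), and in the W250S set -0.034 to 0.078 (Nfkbia), -0.051 to 0.18 (Tnip1) and -0.33 to 0.28 (Zfp36).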
